A study of Mus musculus with 246 samples.

Results

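Gm9008 is a gene of mouse chromosome 6 and was examined as 1 of the 56691 genes in the count table, in 41 libraries from each of 6 brain regions. It was picked on measured values of these same data: without a social encounter its group means differed between conditions in 5 or more brain regions, and its level looked on or off from mouse to mouse. Its on and off pattern and its differences between conditions among mice without interaction are therefore given as descriptions, with no test. Tests are given for differences between regions, between conditions after interaction, and between mice with and without interaction averaged over conditions. None of these comparisons drew attention to the gene. The first and last include the libraries behind those group means, and all include mice whose on and off pattern had been seen. The table lists it as ENSMUSG00000072476.7. In GENCODE M21, on build GRCm38, it lies on the minus strand at chr6:76495432-76497784, with 1 exon that carries the whole transcript of 2353 bases. GENCODE calls it a protein-coding retrogene, whereas RefSeq calls it a pseudogene.

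The libraries were poly(A) RNA-seq of bilateral punches taken in 6 regions, which were the ventral hippocampus (vHipp), the dorsomedial thalamus (DMT), the basolateral part of the amygdala (BLA), the nucleus accumbens (Nacc) and, in cortex, the medial prefrontal (mPFC) and anterior cingulate (ACC) areas, of 41 adult male CD1 mice, an outbred stock bred in house. Ctrl_Veh litters had standard nesting material and ELA_Veh and ELA_SAFit2 litters had limited bedding and nesting in early postnatal life (early life adversity, ELA). The dams received 1 injection of a gel, empty for Veh or holding SAFit2, an inhibitor of the co-chaperone FKBP51, which reached the pups through milk. Mice were taken without interaction (NI, 7 per condition) or after 10 min with an unfamiliar mouse (SI, 6 Ctrl_Veh, 7 ELA_Veh and 7 ELA_SAFit2). Litters were not named for the mice, so littermates within a group could not be told apart from unrelated mice, and p-values over mice count each mouse as separate.

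A retrogene is an intronless copy of a gene, formed when a processed mRNA is reverse transcribed and inserted elsewhere in the genome. Such a copy can stay nearly identical to its parent, and short reads from the shared stretches can then be assigned to either gene. The parent here is Rnf26 (ENSMUSG00000053128.16), at chr9:44095631-44113517 on the minus strand of the same build, which encodes a ubiquitin ligase of the endoplasmic reticulum membrane that tethers endosomes near the nucleus. The likeness of both transcripts was measured after the values had been seen. Over 2322 aligned positions 99.1% were identical, with 17 mismatches and 5 gap positions. The coding stretch had 1272 bases in each gene and 11 mismatches; 6 of 424 codons would translate to another amino acid, and there was no premature stop codon. Of 2254 windows of 100 bases, the length of 1 read, 31.3% were found unchanged in an Rnf26 transcript.

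The coding window of 150 bases that held the most differences is shown to make plain how few bases separate the genes within the coding stretch; 6 further mismatches, the gap positions and the unaligned ends also differ. It holds 3 differences, at coding positions 764 to 913 counted from 1 at the start codon, and the capitals mark the bases that differ (GENCODE M21 transcripts, GRCm38).
Gm9008: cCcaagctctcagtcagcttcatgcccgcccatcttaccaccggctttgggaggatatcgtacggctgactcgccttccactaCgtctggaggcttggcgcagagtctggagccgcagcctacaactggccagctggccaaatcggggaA
Rnf26: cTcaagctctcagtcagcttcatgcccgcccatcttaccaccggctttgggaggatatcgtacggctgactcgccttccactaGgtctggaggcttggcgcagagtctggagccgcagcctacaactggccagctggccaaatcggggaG
With the Rnf26 base first, these are T765C, G847C and G913A. The genome build of the box (GRCm38) is not the build named in the submitters' processing notes (GRCm39), so positions serve only to place the genes.

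Total estimated counts per library ranged from 20804247 to 43351424. The regions carried their labels' markers: the 5 markers of the Nacc, the 3 of the DMT and the 3 of the vHipp were each highest in that region, and the 3 cortical markers were highest in the ACC and next highest in the mPFC. For the BLA, Rspo2 averaged 17.6 CPM (counts scaled to 1000000 per library, with TMM factors) against 39.5 CPM in the ACC, so its markers did not set it apart from cortex. In the Nacc, 12 of 41 libraries stood against their mouse number. Across 60 genes that differ between mice, none on chromosomes 6 or 9, each of these 12 resembled another mouse's 5 other regions (r = 0.879 to 0.974) rather than its own mouse's (r = -0.293 to 0.326). In the other 5 regions, all 41 libraries matched their own mouse in each region. No library was relabelled. Values without the Nacc stand beside the group means of Gm9008 and its tests between conditions after interaction. Fitted differences without interaction, and the condition comparisons of Rnf26 and of both genes added, are given with the Nacc only.

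Gm9008 fell into 3 bands that did not overlap. In the 5 regions other than the Nacc, 20 mice were near 0, 17 mice were at a middle level and 4 mice at an upper level. The mean over 5 regions lay between 0 and 0.0672 CPM in the mice near 0, between 3.13 and 3.74 CPM in the middle band and between 6.82 and 7.29 CPM in the upper band. Band means were 0.0317 ± 0.0193 CPM (SD, n = 20), 3.48 ± 0.196 CPM (SD, n = 17) and 7.00 ± 0.218 CPM (SD, n = 4), so that the upper band stood 2.01 times as high as the middle one. The bands were set after these values were seen and are not groups of the study. A mouse was placed by its mean share of Gm9008 in the sum of Gm9008 and Rnf26 over the 5 regions, with limits at 1% and 18%. In estimated counts, a library of the zero band held 0 to 6.03 reads and 49 of its 100 libraries were at 0, whereas middle libraries held 43.3 to 160 reads and upper libraries 117 to 251 reads. A count of 0 allows up to 3 reads per library, by counting error alone, and only the low end of the zero band is limited by depth.

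**Figure D1:**
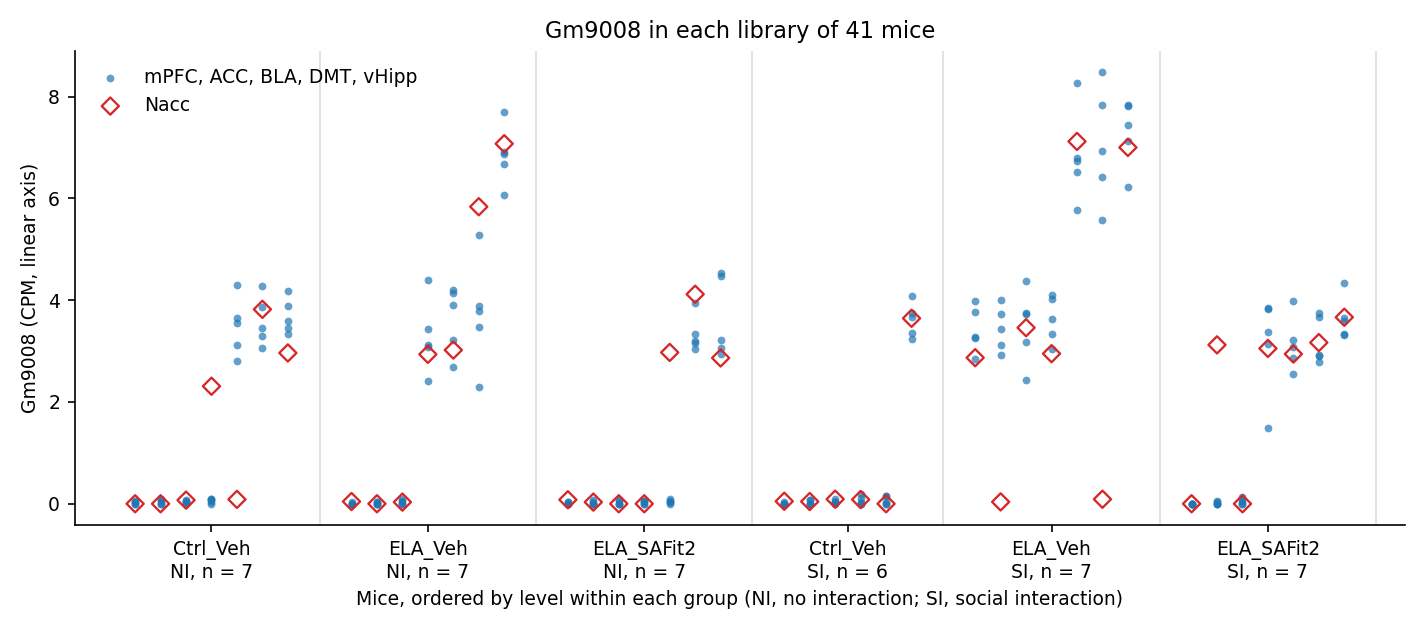
Each point is 1 library, with Gm9008 in CPM on a linear axis and the 41 mice in columns, by condition and by no interaction (NI) or social interaction (SI). Filled points are the 5 regions other than the Nacc and open diamonds are the Nacc; the filled points of a mouse stay at 1 of 3 heights, while 7 diamonds sit at a height other than that of their column.

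The parent gene moved the other way by the same amount. Rnf26 averaged 28.3 ± 0.744 CPM in the zero band, 24.8 ± 0.722 CPM in the middle band and 20.98 ± 1.002 CPM in the upper band (SD over mice). Its mean was thus 3.53 CPM lower in the middle band and 7.31 CPM lower in the upper band than in the zero band. The sum of both genes barely moved, at 28.3 ± 0.741 CPM, 28.2 ± 0.809 CPM and 27.98 ± 0.939 CPM, and over all 41 mice the sum ranged from 26.7 to 30.3 CPM. The bands were cut on the share of Gm9008 in this sum, so Rnf26 entered the cut as well and these values are descriptions. How the reads were split between both genes was not tested.

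**Figure D2:**
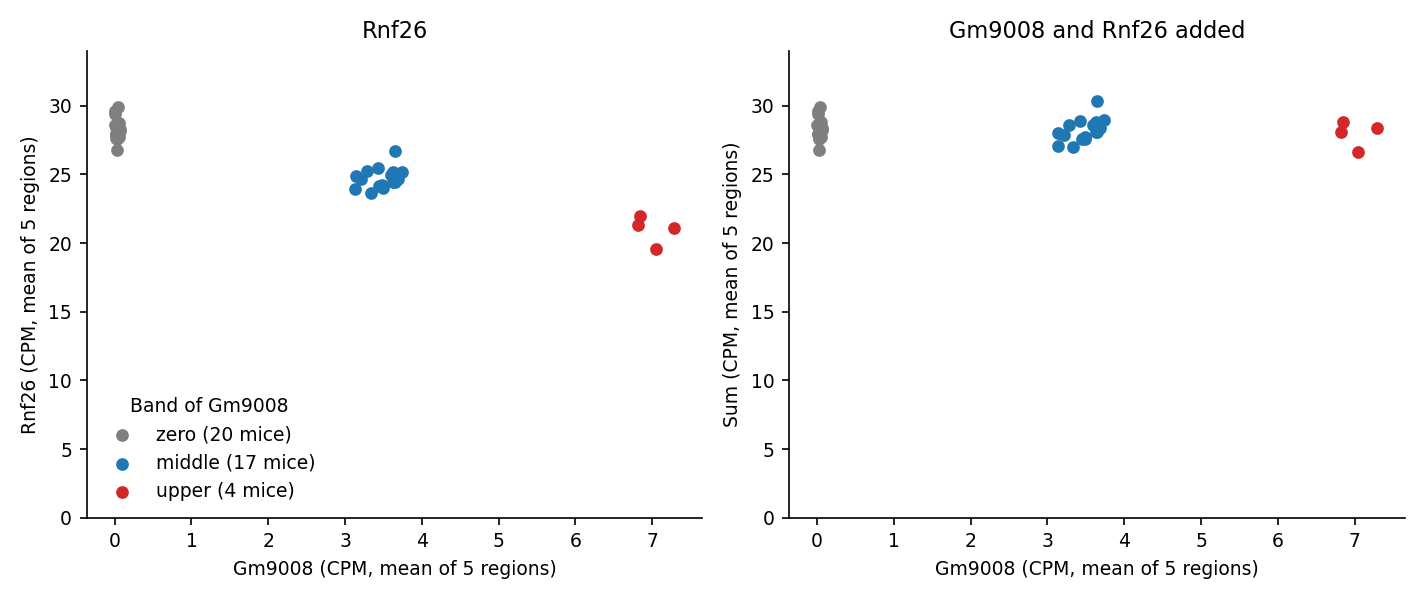
Each point is 1 mouse (mean of 5 regions without the Nacc), with Gm9008 in CPM on the horizontal axis and Rnf26 (left) or the sum of both genes (right) in CPM on the vertical axis, which starts at 0. Rnf26 steps down from 28.3 to 24.8 to 20.98 CPM across the 3 bands, while the sum stays between 26.7 and 30.3 CPM.

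As a share of the sum, on which the bands were cut, Gm9008 made up 0 to 0.257% in the mice of the zero band. The share was 11.2% to 13.04% in those of the middle band and 23.8% to 26.4% in those of the upper band. Single libraries reached 0.707% in the zero band, ran from 5.23% to 15.2% in the middle band and began at 21.7% in the upper band. The lowest middle value, 5.23%, was the ACC of ELA_SAFit2 SI mouse 95, whose count was 43.3, and the next lowest middle library held 8.79%. Depth did not separate the bands: mean totals per library, in units of 1000000 counts, were 29.01, 28.97 and 27.5. Summed CPM of microglial markers (Cx3cr1, P2ry12, Csf1r) averaged 136 ± 7.68, 135 ± 6.03 and 129 ± 3.33, and those of endothelial markers (Cldn5, Flt1, Pecam1) 109 ± 5.58, 110 ± 4.44 and 107.2 ± 5.75. Astrocytic markers (Aqp4, Gfap, Aldh1l1) averaged 240 ± 21.7, 248 ± 20.98 and 238 ± 18.1 CPM. Red cell transcripts (Hba-a1, Hbb-bs) averaged 167 ± 35.7, 170 ± 42.0 and 198 ± 32.7 CPM, and choroid plexus markers (Ttr, Kl, Folr1) 508 ± 261, 404 ± 339 and 595 ± 266 CPM. The ranges of each of these lists overlapped between all 3 bands, and their part in the level of Gm9008 was not tested.

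The regions of a mouse agreed. In mPFC, ACC, BLA, DMT and vHipp all 41 mice kept the same band in all 5 regions. The band of a mouse came from its mean over these same 5 regions, so each of these libraries had a part in it. In the Nacc 7 of 41 libraries lay in another band than the rest of their mouse, and for 6 of these the gene was on in the Nacc and off elsewhere or the reverse. Of the share of variance of log2(CPM + 0.1), 92.0% lay between mice and 0.0595% between regions, against medians of 12.1% and 46.2% over 26835 genes tested. Without the Nacc the share between mice was 98.7%, and 3 genes had a larger one. Rnf26 had 51.1% between mice and 33.01% between regions in those 5 regions. The sum of Gm9008 and Rnf26 had 7.40% between mice and 62.6% between regions, so that added together they varied mainly by region.

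The 7 Nacc libraries that disagreed were all among the 12 that matched another mouse. A Ctrl_Veh NI mouse (mouse 81), an ELA_SAFit2 NI mouse and an ELA_SAFit2 SI mouse were near 0 elsewhere and had 2.31, 2.97 and 3.12 CPM in the Nacc. Mice 1, 59 and 61 were at the middle or upper level elsewhere and had 0.0859, 0.0367 and 0.0889 CPM in the Nacc. Mouse 69 was in the middle band elsewhere, at a share of 12.8%, and had 23.1% in its Nacc library. When each of the 12 libraries was set beside the mouse it most resembled, 0 of 41 Nacc libraries lay in another band than that mouse's other regions. The Nacc library of mouse 69, for example, matched mouse 61 (r = 0.913), whose other regions held 26.4%, and the Nacc library of mouse 61 matched mouse 23 (r = 0.974), whose other regions held 0.179%. The match used no gene on chromosome 6 or 9, and hence neither Gm9008 nor Rnf26. The 12 matches formed a closed exchange, in which each of the 12 mice was the best match of exactly 1 of the 12 libraries.

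**Figure D3:**
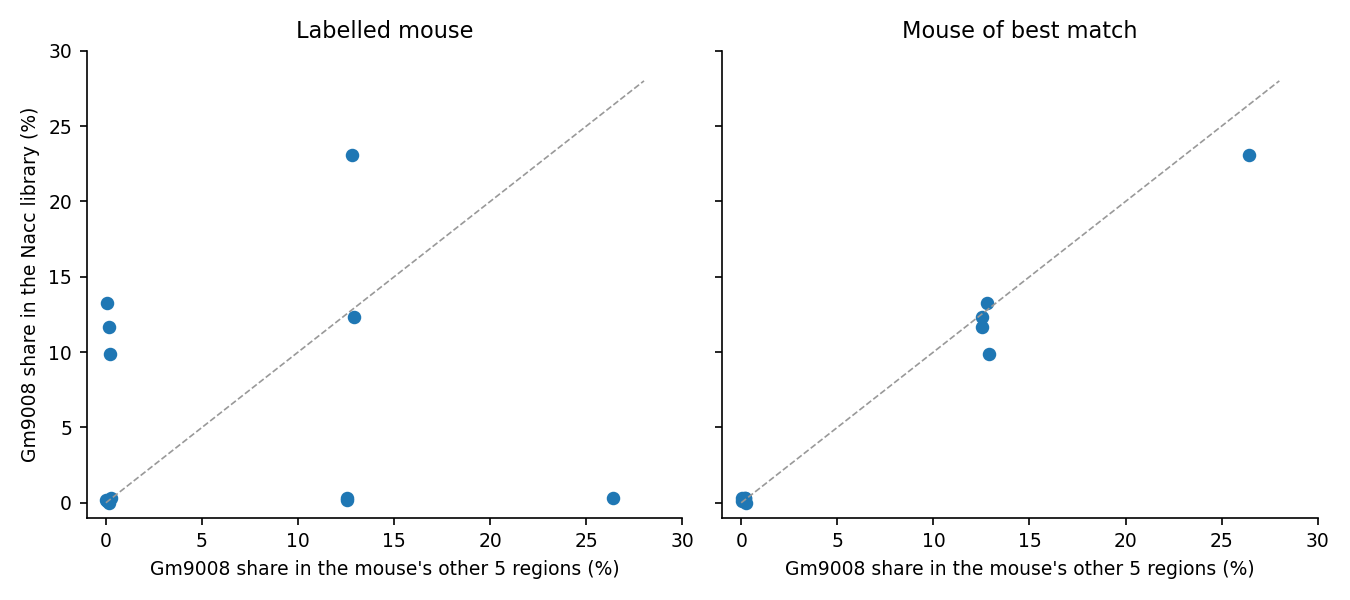
Each point is 1 of the 12 Nacc libraries that matched another mouse, with its Gm9008 share (percent of Gm9008 + Rnf26 CPM) on the vertical axis and the mean share in 5 other regions on the horizontal axis, for the labelled mouse (left) and for the mouse of best match (right). The dashed line marks equal shares; 7 points leave their mouse's band on the left, and on the right the upper point sits at 23.1% against 26.4% and the others near 0 or the middle band.

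The level by region, over all 41 mice, was highest in the DMT at 2.43 ± 2.63 CPM (SD, n = 41), followed in linear CPM by the ACC at 2.21 ± 2.44, the mPFC at 2.12 ± 2.32, the Nacc at 1.99 ± 2.21, the BLA at 1.98 ± 2.16 and the vHipp at 1.97 ± 2.17. These SDs hold the spread between bands, and 21 of 41 libraries were at 0.5 CPM or more in each of the 6 regions. Among middle-band mice whose libraries matched their number, the DMT averaged 3.997 ± 0.547 CPM (n = 17), the ACC 3.56 ± 0.631, the mPFC 3.46 ± 0.478, the Nacc 3.27 ± 0.423 (n = 13), the BLA 3.20 ± 0.374 and the vHipp 3.18 ± 0.492. In share of the sum the same mice ranged from 11.7% ± 1.67 in the vHipp to 12.9% ± 1.37 in the BLA, so that the regional order of CPM did not carry over to the share.

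Gm9008 did not pass the test for a difference between regions, in which 89.5% of 26835 genes did (edgeR quasi-likelihood F-test, Benjamini-Hochberg adjusted p = 0.988). That fit had no mouse term, so the spread between mice, 92.0% of the variance, counted as noise. It thus had little power for a step between regions. The fitted regional means spanned 0.30 log2 units, from 0.20 above the mean of regions in the DMT to 0.09 below it in the vHipp. With the mouse number as a replicate block the span was 0.42 and the edgeR adjusted p 0.296. That block held the 12 Nacc libraries that matched another mouse under their labelled number. A block fit without them was not run. In the order of mean log2(CPM + 0.1), which ran DMT, ACC, Nacc, vHipp, mPFC and BLA, no neighbouring pair differed beyond its spread in a paired permutation test over 41 mice. Pairing was by mouse number, against which 12 of 41 Nacc libraries stood, so the pairing was partly broken for steps with the Nacc. Their SE was 0.28 log2 units, against 0.065 to 0.076 for the other steps. The largest step was DMT over ACC, 0.11 ± 0.07 (SE), with the DMT higher in 24 of 41 mice (paired permutation p = 0.104, adjusted over 5 pairs 0.518), and the other 4 adjusted p-values of that test were 0.987. The test and the count of mice include the 20 zero-band mice, whose libraries held 0 to 6.03 reads. In these mice the order of regions rests on very few reads, and ties at 0 counted as not higher. With a pseudocount of 1 CPM, DMT over ACC was 0.067 ± 0.029 (SE; paired permutation p = 0.0243, adjusted 0.1215). The sum of Gm9008 and Rnf26, taken as 1 gene, did differ between regions, from 24.7 ± 1.53 CPM in the BLA to 31.1 ± 2.15 CPM in the DMT (edgeR adjusted p = 4.7e-45).

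**Figure D4:**
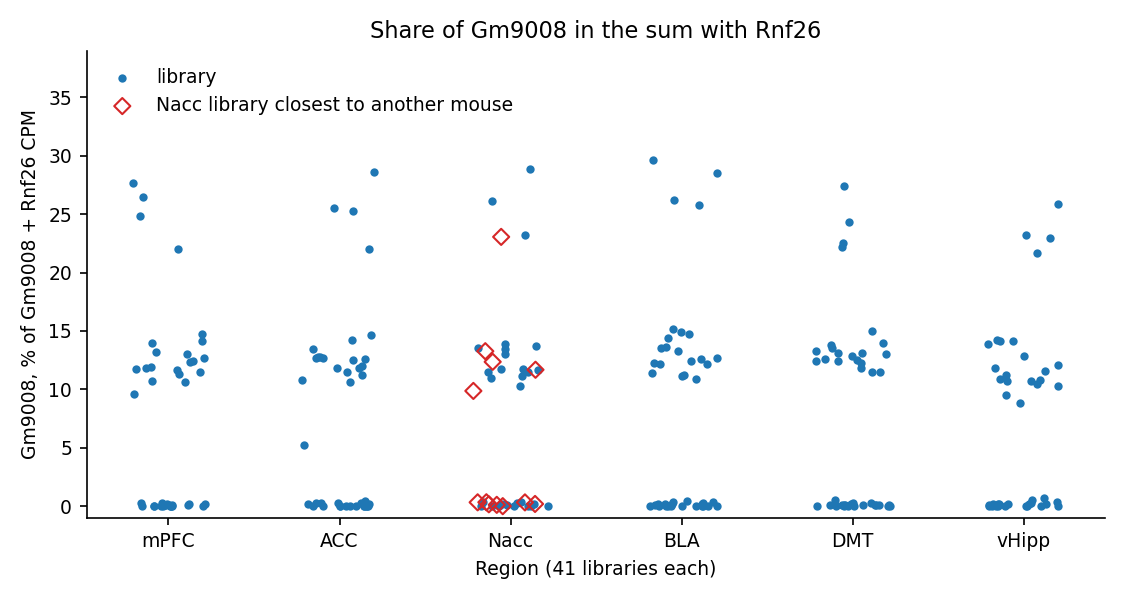
Each point is 1 library, with the region on the horizontal axis and Gm9008 as a percent of Gm9008 + Rnf26 CPM on the vertical axis; open diamonds are the 12 Nacc libraries that matched another mouse. In each region the libraries fall near 0, near 12% and above 21%, with 1 ACC library at 5.23%.

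Without interaction, where the fold changes drew attention to the gene, 3 of 7 Ctrl_Veh mice, 4 of 7 ELA_Veh mice and 2 of 7 ELA_SAFit2 mice were above the zero band in the 5 regions, and 1 ELA_Veh mouse (mouse 99) was in the upper band. Mouse means over all 6 regions in Ctrl_Veh ran from 0.0194 to 3.63 CPM with a median of 0.433. That median is mouse 81, whose Nacc library matched another mouse, and without the Nacc it was 0.0582 CPM. In ELA_Veh they ran from 0.0135 to 6.88 CPM with a median of 3.23, and in ELA_SAFit2 from 0.0212 to 3.52 CPM with a median of 0.0256. The group means were 1.52 ± 1.75, 2.54 ± 2.64 and 1.09 ± 1.65 CPM (SD, n = 7 each), and without the Nacc 1.56 ± 1.90, 2.51 ± 2.61 and 1.02 ± 1.69 CPM. The medians of ELA_Veh and ELA_SAFit2 without the Nacc were 3.29 and 0.0282 CPM. The groups overlapped over most of their range, and the higher mean of ELA_Veh came with 1 more mouse above the zero band than in Ctrl_Veh and with the single upper mouse. Fitted on counts summed over the regions of a mouse, ELA_Veh differed from Ctrl_Veh by 0.75 ± 1.14 (SE) log2 units, ELA_SAFit2 from ELA_Veh by -1.23 ± 1.16 and ELA_SAFit2 from Ctrl_Veh by -0.49 ± 1.16, each about as large as its SE or smaller.

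After social interaction, 1 of 6 Ctrl_Veh mice, 7 of 7 ELA_Veh mice and 4 of 7 ELA_SAFit2 mice were above the zero band, and the upper band held 3 ELA_Veh mice (mice 21, 61 and 91). Mouse means in Ctrl_Veh ran from 0.0138 to 3.62 CPM with a median of 0.0537, and 5 of the 6 mice were near 0. In ELA_Veh they ran from 2.88 to 7.24 CPM with a median of 3.51, so that no mouse was near 0. In ELA_SAFit2 they ran from 0 to 3.65 CPM with a median of 3.11. The group means were 0.641 ± 1.46 CPM (n = 6), 4.74 ± 1.85 CPM (n = 7) and 1.95 ± 1.66 CPM (n = 7). Without the Nacc they were 0.639 ± 1.46, 5.02 ± 1.91 and 1.89 ± 1.75 CPM, with medians of 0.0553, 3.63 and 3.13 CPM, and the lowest ELA_Veh mouse was at 3.43 CPM. All 4 upper mice of the study, without and with interaction, were ELA_Veh.

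These mice were not used for the fold changes that drew attention to the gene, although the on and off pattern over all libraries was known. On the log scale the exact test rests mostly on how many mice of a group were near 0, so it is not independent of that pattern. ELA_Veh had a mean log2(CPM + 0.1) 4.09 ± 0.83 (SE) above Ctrl_Veh (two-sided exact permutation test over mice, p = 0.00583, adjusted over 3 pairs 0.0175; 5 regions without the Nacc, 4.36 and adjusted p = 0.00874). ELA_SAFit2 was 2.25 ± 0.96 below ELA_Veh, or -2.25 in log2 units (exact p = 0.0361, adjusted 0.0542), a difference that passed the threshold without the Nacc (-2.60, exact adjusted p = 0.00874). ELA_SAFit2 was 1.84 ± 1.23 above Ctrl_Veh (exact p = 0.219, adjusted 0.219; without the Nacc 1.76, exact adjusted p = 0.330). In the edgeR fit across all genes on counts summed per mouse, the same 3 differences were 2.90 ± 1.31, -1.29 ± 1.14 and 1.61 ± 1.26 log2 units (SE), with edgeR adjusted p-values of 0.860, 0.981 and 0.9998. Without the Nacc they were 3.01, -1.42 and 1.58 log2 units, with edgeR adjusted p-values of 0.730, 0.998 and 0.9997. The fit of 6 regions called 0% of 26847 genes in each of the 3 comparisons, while 1522, 1341 and 1209 genes had an unadjusted p under 0.05 and DESeq2 called 11, 2 and 14 genes. Unadjusted, the edgeR p for Gm9008 was 0.0324, 0.268 and 0.209, and both kinds of test place ELA_Veh above Ctrl_Veh and ELA_SAFit2 between them.

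The same contrasts in Rnf26 had the opposite sign. Rnf26 was -0.26 ± 0.06 log2 units in ELA_Veh against Ctrl_Veh (edgeR adjusted p = 0.243; 6.3e-05 unadjusted), 0.18 ± 0.06 in ELA_SAFit2 against ELA_Veh (adjusted p = 0.853) and -0.08 ± 0.06 in ELA_SAFit2 against Ctrl_Veh. When the counts of both genes were added, the 3 differences were -0.018 ± 0.023, 0.0080 ± 0.022 and -0.0098 ± 0.023 log2 units, with edgeR adjusted p-values of 0.973, 0.993 and 0.9998. The sum averaged 28.01 ± 0.845 CPM in Ctrl_Veh, 27.5 ± 0.587 CPM in ELA_Veh and 27.6 ± 0.395 CPM in ELA_SAFit2 after interaction. The differences between conditions in Gm9008 thus had no counterpart in the sum that exceeded the spread between mice.

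For social interaction itself, 8 of 20 SI mice and 12 of 21 NI mice were in the zero band. Averaged over conditions, SI exceeded NI by 0.16 ± 0.68 (SE) log2 units (edgeR adjusted p = 0.948; without the Nacc 0.19, adjusted p = 0.934), in a comparison that called 5.23% of the genes. Whether the differences between conditions changed with interaction was not tested.

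Of the 10 genes whose mouse means were most like that of Gm9008, 9 lay on chromosome 9, as Rnf26 does, and none on chromosome 6. Likeness was Pearson's r of mean log2(CPM + 0.1) over 41 mice, which sit in 3 bands, so r mainly reflects the step between bands and carries no p. The 9 were Gm47345 (r = 0.864), Gm49317 (0.780), Gm8707 (0.754), Gm10687 (0.721), Gm34004 (0.707), Srpr (0.672), Gm39323 (0.641), Trappc4 (0.638) and Treh (0.634), with Gm8750 (0.688) on chromosome 17. Srpr encodes a subunit of the receptor for the signal recognition particle, Trappc4 a subunit of a vesicle tethering complex and Treh the enzyme trehalase. Without the Nacc the r of these 10 genes ran from 0.567 (Treh) to 0.897 (Gm47345), and 9 of them remained among the 10 most like. Gm47345 averaged only 0.0405 CPM, and Gm34004 was the farthest of the 9 from Rnf26, at 17 Mb.

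The 5 most opposite genes were led by Rnf26 (r = -0.868), followed by C1qtnf5 (-0.789), a secreted C1q-like protein whose midpoint lies 0.00364 Mb from that of Rnf26, Gm16092 (-0.770) on chromosome 1, Gm35835 (-0.746) and Ccdc84 (-0.736), both on chromosome 9. In the 5 regions without the Nacc, 17 of 76 genes within 1 Mb of Rnf26, or 22.4%, had an r of at least 0.5 in size, against 0.239% of 26833 genes. Of the 64 genes of that size, 30 were on chromosome 9, 22 of them within 5 Mb of Rnf26. The other 34 (0.134% of 25356 genes) had no place on chromosome 9, with 7 on chromosome 11 and 6 each on chromosomes 4 and 17. Of genes on chromosome 9 more than 20 Mb away the share was 0.101%. Within 5 Mb of Gm9008 on chromosome 6, 0 of 72 genes reached that size, and the largest r was 0.339 in size.

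**Figure D5:**
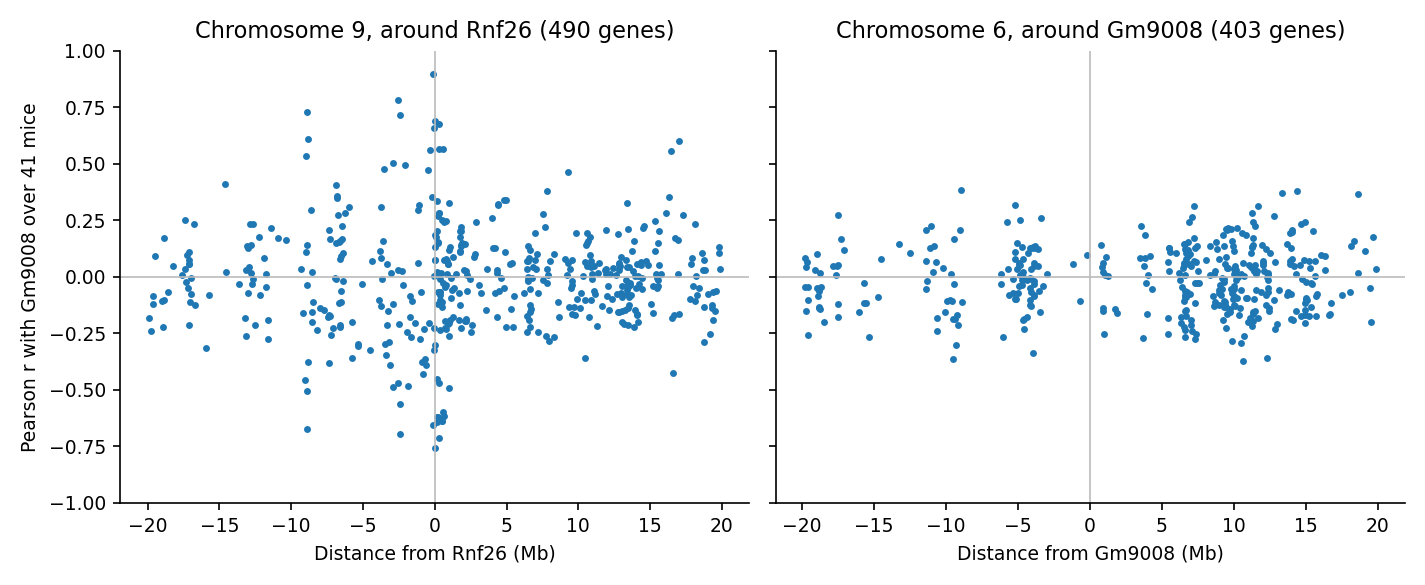
Each point is 1 gene tested, with its distance in Mb from Rnf26 on chromosome 9 (left, 490 genes) or from Gm9008 on chromosome 6 (right, 403 genes) on the horizontal axis, up to 20 Mb on each side, and Pearson's r of its mouse mean with that of Gm9008 over 41 mice (5 regions without the Nacc) on the vertical axis; Rnf26 itself is left out. Within 1 Mb of Rnf26 17 of 76 genes are at least 0.5 in size, and near Gm9008 none exceeds 0.339 in size within 5 Mb.

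The neighbours of Gm9008 on chromosome 6 did not follow it. Lrrtm1, a synaptic adhesion protein, and Ctnna2, a neuronal catenin, had at least 785 and 2241 reads in every library and r of 0.0103 and -0.0196 (without the Nacc 0.142 and 0.0220). The processed pseudogene Gm44126 had r of -0.0263, Gm44234 0.0903, 6330415B21Rik -0.199 and Gm44435 0.00486. Gm44113, Gm5995, Gm22283 and Gm44163 had 0 to 2 reads in any library. Gm44166, annotated antisense to Gm9008 over the same stretch, had at most 4 reads, against up to 251 for Gm9008; the library kit marks strand, but whether the counting used it is not given in the sources used here.

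Among other transcripts that resemble or overlap Rnf26, Gm49380, an overlapping model of the Rnf26 locus, had a median of 11.1 reads and r of 0.136. The antisense Gm26737 had a median of 19 reads and r of 0.140, and Gm47327 had at most 1 read. These are not all: the midpoints of C1qtnf5, Gm20444 and Mfrp also lie within the annotated span of Rnf26. Without the Nacc their r was -0.756, -0.303 and 0.0752, so C1qtnf5 did vary with Gm9008, in the opposite direction. The pseudogenes Gm9198 on chromosome 14 and Gm6184 on chromosome X had at most 2.004 and 3.02 reads, so they held almost none of the reads that differed between mice.

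Of the 8 genes named beside Gm9008 for a like pattern in 5 or more regions, none had an r above 0.4 in size with it over the 41 mice. Tlr1, an innate immune receptor, had 0.379, Best1, a chloride channel, 0.173 and Abcb1b, an efflux transporter, -0.194. Cwc22, a splicing factor, had 0.110, Gm13691, Gm13697 and Gm13698 had 0.116, 0.0960 and 0.0806, and Derpc had 0.0936.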

How the data were processed

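The deposited table holds estimated counts per gene (salmon, merged to genes by the authors; 12.1% of values are not whole); the salmon version and annotation are not given in the sources used here, and the submitters' processing notes name STAR, DESeq2 and GRCm39 (mm39). Reads were paired, 100 bases each, from a stranded poly(A) kit. Estimated reads of near-identical genes are split by a model, so Gm9008 and Rnf26 are uncertain as separate genes; all 189 values of Gm9008 above 0 were fractional. Counts were rounded, genes with a summed count of 100 or more and a count in 6 or more libraries were kept, and CPM used TMM factors. Tests were edgeR 4.0.16 quasi-likelihood (R 4.3.3; trended dispersion) over 246 libraries or over counts summed per mouse, with DESeq2 1.42.0 as an alternative, and permutation tests over mice (SciPy 1.17.1; 100000 resamples or exact). The edgeR steps were tested on simulated data, in which no gene had levels in bands as Gm9008 does. Groups came from the labels. The mouse number pairs the libraries of the 6 regions, and was the block in an alternative fit. Positions used GENCODE M21, which matched 52073 of 56691 gene IDs; 1-base differences came from a local alignment with Biopython 1.88.

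Gm9008, the tests and the lists were chosen with earlier results of these data known. Genes were named by rule: the 10 most like and 5 most opposite by Pearson's r, up to 5 neighbours on each side, and 8 genes noted beside Gm9008 for a like pattern. The rule for similar proteins could not be applied without a protein table, so transcript likeness was used, chosen after values were seen.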

Additional observations from a re-analysis of the deposited data

Results flagged for a closer look

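Among 42 sets of Gm9008 values, by group and by region, 7 had 1 sample far from the others, and all 7 were the same mouse, the only 1 of 6 Ctrl_Veh SI mice above the zero band. Its mean was 3.62 CPM. By region it had 4.08 CPM (ACC), 3.75 CPM (DMT), 3.68 CPM (mPFC), 3.64 CPM (Nacc), 3.36 CPM (BLA) and 3.23 CPM (vHipp). Chance sets apart about 1 in 20 groups by this measure, a rate that was not worked out for levels in bands such as these. A single mouse above the zero band stands far from mice near 0 in any such group. The 7 values are also not independent, since they share a mouse. Without this mouse the edgeR difference of ELA_Veh from Ctrl_Veh after interaction was 6.66 log2 units instead of 2.90 (adjusted p = 0.475), and that of ELA_SAFit2 from Ctrl_Veh 5.38 instead of 1.61 (adjusted p = 0.774), with a control group then near 0 throughout.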

How the results depend on the processing

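Of 175 alternative values, 158 kept their direction and their side of the threshold. Other scaling, no filter and DESeq2 changed no call of Gm9008 in the fits across all genes. Adding Rnf26 to Gm9008 (chosen after seeing the data) turned the direction of ELA_Veh against Ctrl_Veh to -0.018, of ELA_SAFit2 against ELA_Veh to 0.0080, of ELA_SAFit2 against Ctrl_Veh to -0.0098 and of social interaction to -0.021 log2 units, brought the range between regions (0.33) past the threshold and lowered the share of variance between mice to 6.84%, where leaving out the Nacc raised it to 98.7%. With a pseudocount of 1 CPM, vHipp against mPFC turned to -0.036. By exact test, ELA_SAFit2 against ELA_Veh passed the threshold with a pseudocount of 1 (-1.15, adjusted p = 0.0350), without the Nacc (-2.60) and without the 12 mismatched Nacc libraries (-2.58), and without mouse 31, 55, 59, 63 or 95 in turn; without each mouse it ran from -2.60 to -1.73. Social interaction ran from -1.09 (without the 1 Ctrl_Veh SI mouse above the zero band) to 0.25, and edgeR's ELA_Veh against Ctrl_Veh from 2.64 to 6.66. The replicate block, with libraries paired by mouse number and the 12 mismatched Nacc libraries included, gave a range of 0.42 between regions (edgeR adjusted p = 0.296). It did not change the call, but its pairing was partly broken. The number of mice with the gene on, by mean over 6 regions, was 23 at 0.5 CPM and 21 without the Nacc. Depth limits only the zero band.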
